A study of Mus musculus with 59 samples.

Results

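Hippocampal transcriptomes were compared between APOE4 and APOE3 female mice at 9 months of age that had entered irregular cycling (9M-Irreg). The members were 12 of the 59 libraries of the series, chosen by the age, genotype and cycling status in their labels, with 6 animals per genotype and 1 poly(A) RNA library per animal. APOE3 mice were homozygous for human APOE3 (hAPOE3/hAPOE3) and APOE4 mice for human APOE4 (hAPOE4/hAPOE4), in each case in place of the mouse Apoe gene by targeted replacement. Cycling had been followed by vaginal cytology. The 47 other libraries covered regular cyclers at 6 and 9 months (6M-Reg, 9M-Reg) and irregular and acyclic mice at 15 months (15M-Irreg, 15M-Acyc), and they entered the fit to estimate the spread between animals. Irregular cycling at this age marks the early part of the transition out of reproductive life.

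Apolipoprotein E is the main lipid carrier of the brain. It is secreted mostly by astrocytes, taken up by neurons and glia through receptors of the LDL receptor family, and its APOE4 form is the best-known inherited risk factor for late-onset Alzheimer's disease. The hippocampus, which serves memory, is among the regions affected early in that disease. Since a tissue extract mixes neurons, glia, vessels and the blood within them, gene groups are described below together with the markers of those cells.

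The 12 libraries held 20845347 to 28989591 gene counts each. Human APOE is not part of the mouse gene table, so the replaced locus was checked through residual mouse Apoe, with 58 to 153 counts in APOE3 and 68 to 136 in APOE4 libraries. These levels (4.06 ± 1.28 against 4.003 ± 0.72 CPM, counts scaled to library size, SD, n = 6) did not separate the genotypes. Markers of pan-neuronal, dentate granule, CA1 and CA3 cells were all detected. Markers of neighbouring regions were detected too, so detection alone does not show which region was sampled. Neocortex markers summed to 192 to 237 CPM in APOE3 and 211 to 259 CPM in APOE4, with 8 of 10 higher in APOE4 (median log2 fold change 0.10). Markers of thalamus and habenula had a median of -0.09 and those of striatum -0.06. Choroid plexus markers differed widely between animals of both genotypes, with a summed level of 178 to 11900 CPM in APOE3 and 205 to 7960 CPM in APOE4. They were near the bottom of that range in APOE3 replicates 2 and 5 and APOE4 replicate 1. Pituitary hormone transcripts were highest in APOE3 replicate 2, where Prl (prolactin) had 1723 counts and Gh (growth hormone) 741.

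Of 18584 genes tested, 1 gene, Ndn, passed an adjusted p of 0.05 (edgeR quasi-likelihood test with Benjamini-Hochberg adjustment), which is 0.00538% of the genes. At an unadjusted p under 0.05, 470 genes were higher in APOE4 (2.53%) and 562 were lower (3.02%), together 1032 genes or 5.55%. About 929 genes would fall under that threshold if no gene differed. The median log2 fold change over all genes was -0.0007, and 49.7% of genes were above 0. Every count of list members below is to be read against these shares.

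Ndn encodes necdin, a MAGE family protein of postmitotic neurons that is expressed from the paternal allele. The gene, ENSMUSG00000033585, is a single exon at chr7:62346569-62350262 on the plus strand (GRCm38), on the same chromosome as Apoe at chr7:19696109-19699188. The 6 APOE3 animals had Ndn levels of 130.3, 219.0, 214.7, 212.9, 240.5 and 186.8 CPM. The 6 APOE4 animals had levels of 129.7, 128.7, 105.9, 111.2, 125.2 and 104.3 CPM. The APOE4 values all lay below the APOE3 values, although APOE3 replicate 1 was only just above the highest APOE4 animal. No overlap of this kind, with APOE4 lower, was found for 33 genes in all (0.178%).

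Ndn was 1.71-fold lower in APOE4 (log2 fold change -0.77, SE 0.13, edgeR adjusted p = 0.00275), and the adjusted p lay between 7.5e-05 and 0.0265 when any 1 of the 12 libraries was left out. The call was lost when only these 12 libraries were fitted, with an adjusted p of 0.0739 and a log2 fold change of -0.77. The difference was not particular to this stage: in the regular cyclers it was -0.87 on the log2 scale (6M-Reg) and -0.91 (9M-Reg), and in the older mice -0.65 (15M-Irreg) and -0.77 (15M-Acyc). In the regular cyclers the genotypes did not overlap. APOE3 animals had 210 to 236 CPM at 6M-Reg and 198 to 231 at 9M-Reg, against 114 to 132 and 87.3 to 131 in APOE4. In the older mice they overlapped, and some APOE3 animals were at APOE4 levels. APOE3 animals had 114 to 226 CPM at 15M-Irreg and 111 to 231 at 15M-Acyc, against 107 to 121 and 88.6 to 120 in APOE4. The test of the difference between 9M-Irreg and 9M-Reg gave 0.14 on the log2 scale (SE 0.18, edgeR unadjusted p = 0.456).

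No gene around Ndn passed the adjusted threshold. Of the 15 tested genes of the neighbouring imprinted and Angelman-Prader-Willi interval, 11 were higher in APOE4 and 1, Gabrg3 (a GABA-A receptor subunit, log2 fold change 0.19, SE 0.07), had an unadjusted p under 0.05. Snrpn, which encodes a spliceosomal protein and is also paternally expressed, had medians of 906 CPM in APOE3 and 928 CPM in APOE4. Magel2, the MAGE gene next to Ndn, was low, with medians of 2.62 and 2.46 CPM. Among 42 imprinted genes tested across the genome, 3 were lower at an unadjusted p under 0.05 and none was higher. Besides Ndn these were Dlk1, a Notch ligand relative (log2 fold change -0.63, SE 0.25), and Igf2r, the IGF2 clearance receptor (-0.13, SE 0.06). With the length and GC correction described below, 2 of the 42 were lower under that threshold.

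H2ac20, a replication-dependent histone H2A gene, had the second smallest p of the comparison. The gene is ENSMUSG00000068855, at chr3:96220361-96220880 on the minus strand (GRCm38). It had 1, 1, 1, 2, 2 and 1 counts in the APOE3 libraries and 14, 51, 63, 58, 0 and 29 counts in the APOE4 libraries. All APOE3 animals were under the floor of 3 counts, 5 of 6 APOE4 animals were above it, and APOE4 replicate 5 had no count, which allows up to 3. Over the pooled libraries this is 215 against 8 counts, a ratio of 27.2 (exact 95% interval 13.6 to 63.8, counting error only). The adjusted p was 0.0638, and it passed 0.05 with DESeq2 (0.0153, or 0.00497 with the authors' normalization factors), with the length and GC correction described below (0.047) and without APOE4 replicate 1 (0.0288) or 5 (0.00725). H2ac20 also passed with APOE4 replicates 2 and 5 left out together (edgeR adjusted p = 0.0195), a setting chosen after seeing the data. The range over the alternatives was 0.00497 to 0.4.

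The difference in H2ac20 was not limited to this stage. In the other groups APOE3 libraries had at most 3 counts each, and APOE4 libraries had 0 to 75 at 6M-Reg, 14 to 60 at 9M-Reg, 0 to 77 at 15M-Irreg and 10 to 77 at 15M-Acyc. The edgeR adjusted p was 0.00399, 0.00173, 0.00358 and 0.164 in that order, and the test of 9M-Irreg against 9M-Reg gave an unadjusted p of 0.616 by edgeR.

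H2ac20 has close copies, and reads could be divided between them by the quantification. Its coding sequence is identical to those of H2ac19 and H2ac18 at 379 of 393 aligned positions (96.4%), while H2ac19 and H2ac18 are identical to each other over the whole coding sequence. Of the 490 windows of 31 bases in the H2ac20 transcript, 232 (47.3%) occur in no transcript of another gene, so part of it can be told from the copies. The last 90 coding bases are shown because they hold the differences at the end of the protein, with capitals for bases that differ from, or have no partner in, the aligned copy (GENCODE vM21 transcripts, plus sense):
H2ac20: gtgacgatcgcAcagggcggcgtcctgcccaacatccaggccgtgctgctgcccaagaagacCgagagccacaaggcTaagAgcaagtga
H2ac19: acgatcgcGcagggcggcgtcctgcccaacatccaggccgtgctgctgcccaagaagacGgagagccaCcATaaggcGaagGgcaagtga
H2ac18 has the same 90 bases as H2ac19 and is not printed again.

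The copies varied in both genotypes. H2ac19 had 14.02, 10.9, 16.6, 11.2, 6.845 and 16.3 CPM in APOE3 and 9.99, 8.28, 6.96, 4.53, 17.03 and 10.05 CPM in APOE4. APOE4 replicate 5, the animal without H2ac20 counts, had the highest H2ac19 level of the 12, and APOE4 replicate 4, with the highest H2ac20 level, had the lowest. The summed level of H2ac18, H2ac19 and H2ac20 was 14.1 to 26.9 CPM in APOE3 (SD 4.59, n = 6) and 14.4 to 27.6 CPM in APOE4 (SD 4.87), and the ranges overlapped almost entirely. Whether reads moved between copies was not tested.

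**Figure D1:**
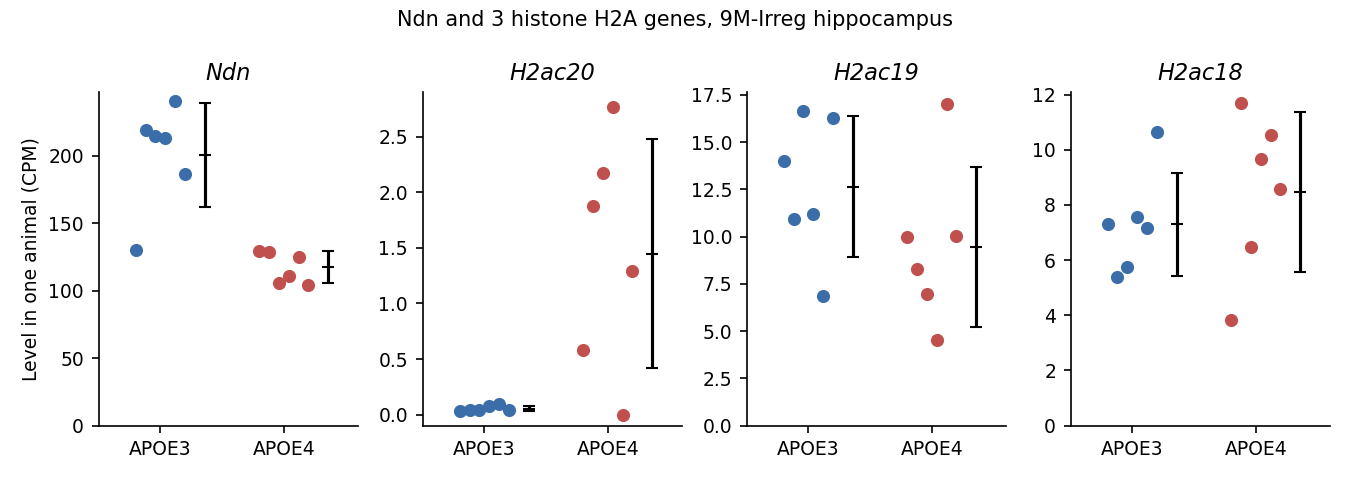
Level in CPM (vertical axes) of Ndn, H2ac20, H2ac19 and H2ac18 in each of 6 APOE3 and 6 APOE4 animals at 9M-Irreg (points, from left to right replicates 1 to 6), with the mean and SD as bars. Ndn is lower in every APOE4 animal, H2ac20 is near 0 in APOE3 and in APOE4 replicate 5, and H2ac19 and H2ac18 overlap.

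Hemoglobin transcripts, which come from red cells in the vessels and at low level from some neurons and glia, were higher in 4 of the 6 APOE4 animals. The rule for naming genes put Hbb-bt, Hba-a2, Hbb-b1 and Hba-a1 in the third to sixth place by p. Their promoters are shown because these genes moved together: each line is the 100 bases before the start site in RefSeq (GRCm38.p6), with capitals for the CACCC box, the CCAAT box, the GATA motif and the TATA motif on either strand, which may overlap each other. Hbb-b1 is named only. The windows are chr11:32283572-32283671 (plus strand) for Hba-a1, chr11:32296392-32296491 (plus) for Hba-a2, chr7:103813924-103814023 (minus) for Hbb-bt and chrX:150547317-150547416 (plus) for Alas2, the erythroid enzyme of heme synthesis.
Hba-a1: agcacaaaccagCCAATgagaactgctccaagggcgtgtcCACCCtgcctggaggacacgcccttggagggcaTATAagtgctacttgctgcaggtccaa
Hba-a2: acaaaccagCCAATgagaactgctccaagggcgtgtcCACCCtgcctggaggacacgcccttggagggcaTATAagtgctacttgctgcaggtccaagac
Hbb-bt: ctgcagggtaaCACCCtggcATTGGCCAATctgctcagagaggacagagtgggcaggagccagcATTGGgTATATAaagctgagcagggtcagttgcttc
Alas2: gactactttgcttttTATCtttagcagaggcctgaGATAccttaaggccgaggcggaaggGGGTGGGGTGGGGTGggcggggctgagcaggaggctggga

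A CACCC match was found in all 4 windows, against 27.2% of 32851 promoter windows of this length. The globin windows also held CCAAT (18.89% of windows) and TATA (15.2%), and the Alas2 window held GATA (25.04%). The windows of Hba-a1 and Hba-a2 are nearly the same sequence. The genes are close copies, so the division of reads between these copies, and between Hbb-bt and Hbb-b1, is uncertain.

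Hbb-bt, a beta-globin gene, had 10.1, 11.7, 11.1, 9.71, 9.19 and 14.7 CPM in APOE3. In APOE4 it had 11.6, 23.8, 8.55, 22.6, 35.6 and 28.4 CPM. APOE4 replicates 2, 4, 5 and 6 lay above every APOE3 animal, and APOE4 replicates 1 and 3 lay within or below the APOE3 range. Hbb-bt was higher by 0.97 on the log2 scale (SE 0.20), with an edgeR adjusted p of 0.0639, and it passed 0.05 with DESeq2 (0.0153). The adjusted p was 0.4 with limma, 0.697 with only the 12 libraries fitted and 0.977 with APOE4 replicates 2 and 5 left out together, a setting chosen after seeing the data, and ran from 0.00146 to 0.977 over all alternatives.

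The alpha-globin gene Hba-a2 ran from 38.2 to 76.1 CPM in APOE3 (median 51.5) and from 37.6 to 135.9 CPM in APOE4 (median 102), with the same 4 animals high. Its log2 fold change was 0.76 (SE 0.18), that of Hba-a1 0.74 (SE 0.18) and that of Hbb-b1 0.72 (SE 0.17), with edgeR adjusted p of 0.321, 0.326 and 0.326. Alas2 was higher by 0.76 (SE 0.29, adjusted p = 0.753). Summed over the 4 globin genes, levels were 133 to 250 CPM in APOE3 (median 172) and 134 to 452 CPM in APOE4 (median 332). The SD was 121 CPM in APOE4 and 38.7 CPM in APOE3.

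Which libraries were used decided the calls here. Without APOE4 replicate 1, 6 genes passed an adjusted p of 0.05, namely Ndn, H2ac20 and the 4 globin genes, with an adjusted p of 0.00761 for Hbb-bt. Without APOE4 replicate 3, 5 genes passed, Ndn and the 4 globin genes. Without APOE3 replicate 6, Hbb-bt passed beside Ndn (0.0481), and without APOE4 replicate 5 its adjusted p was 0.806. Of the 10 blood markers listed, 4 could be tested and all 4 had an unadjusted p under 0.05, higher in APOE4. The other markers in the table were at the edge of detection, with 8 and 13 summed counts in APOE3 and APOE4 for Slc4a1 (the red cell anion exchanger), 7 and 9 for S100a8, 12 and 18 for S100a9 and 2 and 4 for Ngp, the last 3 being neutrophil genes. How much residual blood the samples held was not tested.

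**Figure D2:**
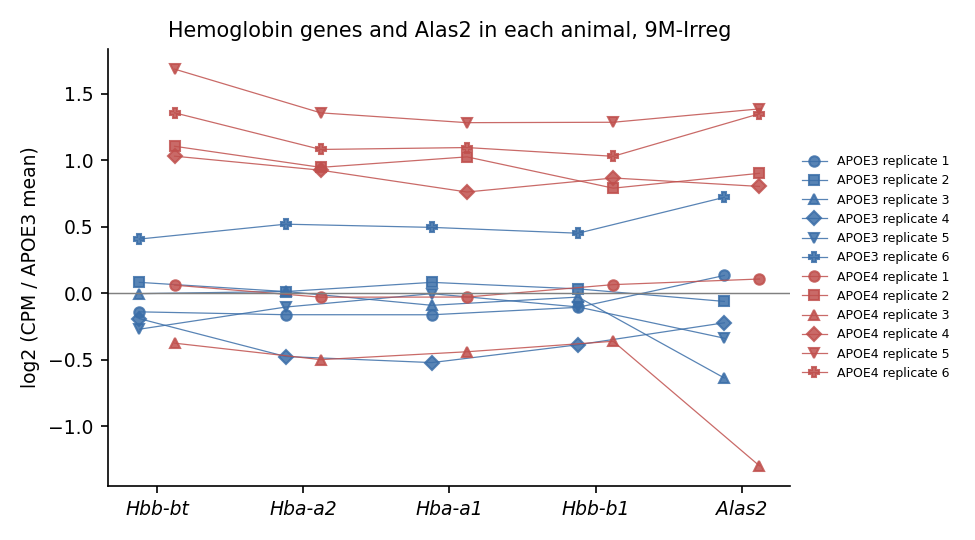
Hemoglobin genes and Alas2 in each animal at 9M-Irreg as log2 of the CPM over the APOE3 mean of that gene (vertical axis), with lines joining the genes of one animal and a marker shape for each replicate number. APOE4 replicates 2, 4, 5 and 6 lie above all APOE3 animals for the 4 globin genes and Alas2, while APOE4 replicates 1 and 3 do not.

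The globin genes were chosen by their p at 9M-Irreg, so their values at the other stages are given as a description. Any p given for them there is from the edgeR test within that stage alone. For Hbb-bt the difference was -0.22 on the log2 scale in 6M-Reg mice, 0.09 in 9M-Reg, 0.06 in 15M-Irreg and 0.37 in 15M-Acyc mice. At 15M-Acyc, Hba-a2 had 0.48 and Hba-a1 0.46, each at an unadjusted p under 0.05 within that stage. None of the 18584 genes (0.0%) passed an adjusted p of 0.05 in the edgeR comparison of the genotype difference at 9M-Irreg with its mean over the other stages, with 1141 genes (6.14%) at an unadjusted p under 0.05, or in the comparison of the genotype difference with that at 9M-Reg, with 513 genes (2.76%). DESeq2 also called 0 genes in both.

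**Figure D3:**
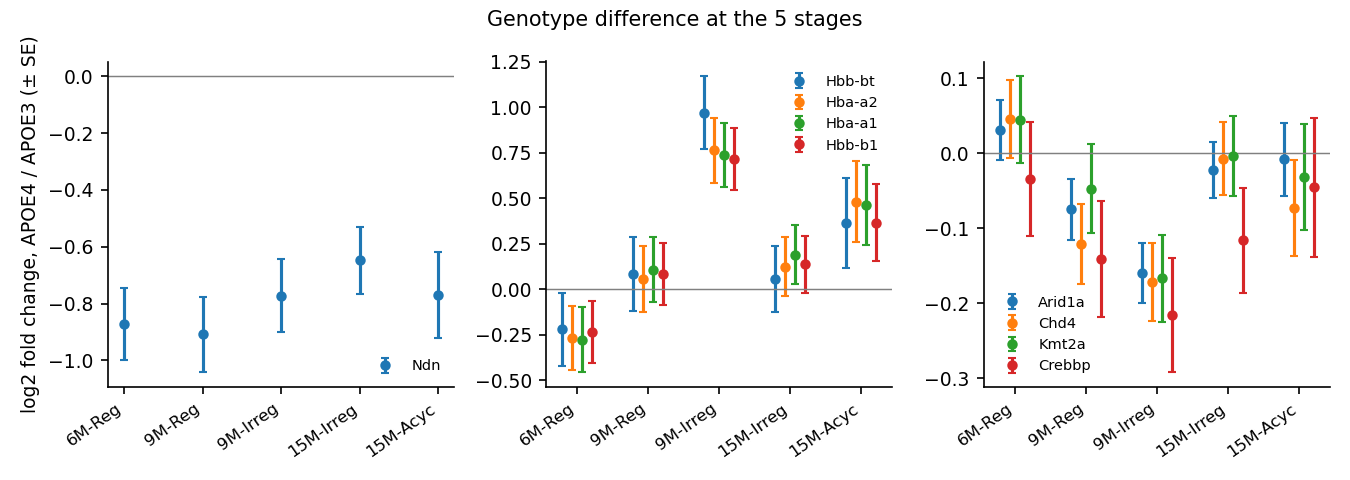
Log2 fold change of APOE4 over APOE3 with its SE (vertical axes, points and bars) at the 5 stages for Ndn, for 4 globin genes and for 4 chromatin regulators, from one edgeR model of all groups. Ndn is lower on average at each stage. The globin genes (0.72 to 0.97 at 9M-Irreg) and the chromatin regulators were chosen by their p at 9M-Irreg, so their being most extreme there is no finding.

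The next genes in order of p did not pass the adjusted threshold. Higher in APOE4 were Olfr1276, an olfactory receptor gene with 7 to 14 counts in APOE3 and 15 to 26 in APOE4 (log2 fold change 0.90, SE 0.22), Gm14379, a predicted gene with 0 to 5 against 7 to 9 counts (1.33, SE 0.37), Rida, a deaminase of reactive enamines and imines (0.33, SE 0.09, or 0.13 with APOE4 replicates 2 and 5 left out together), Hdac8, a class I histone deacetylase (0.26, SE 0.07), and Polr2k, a shared RNA polymerase subunit (0.24, SE 0.07). Lower were Rtp1, a chaperone of olfactory receptors (-1.21, SE 0.33), Nectin1, an adhesion molecule of synapses (-0.31, SE 0.08), the kinase Dyrk1b (-0.23, SE 0.06), Fam222b (-0.21, SE 0.06), Tbc1d10a, which regulates Rab GTPases (-0.20, SE 0.05), Ski, a repressor of TGF-beta signaling (-0.16, SE 0.05), and Celsr2, a cadherin of planar polarity (-0.16, SE 0.05, or -0.09 with the length and GC correction). The groups did not overlap for Gm14379, one of 33 genes higher in APOE4 in this way (0.178%), and for Nectin1, Dyrk1b, Fam222b, Tbc1d10a and Arid1a. Ssh1, a cofilin phosphatase, was lower in counts (-0.20, SE 0.05) but had 0.05 with DESeq2 and the authors' normalization factors, which also carry transcript length. Them5, a mitochondrial acyl-CoA thioesterase gene, and Tshb, the thyrotropin beta gene, were below the filter on low counts. Them5 had 3, 0, 1, 6, 0 and 3 counts in APOE3 and 0, 0, 0, 0, 1 and 0 in APOE4, a ratio of 0.0779 over the pooled libraries (exact 95% interval 0.00183 to 0.519, counting error only). Tshb had 1, 9, 0, 1, 2 and 1 counts in APOE3 and 0, 0, 1, 1, 1 and 1 in APOE4, a ratio of 0.289 (0.0693 to 0.921), with 9 of the 14 APOE3 counts in replicate 2, the animal with the highest pituitary transcripts.

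Chromatin regulators formed the list with the most members at an unadjusted p under 0.05. Of 54 tested, 43 were lower in APOE4 and 11 higher. At an unadjusted p under 0.05, 17 were lower and 1 higher, where the shares over all genes were 3.02% and 2.53%, and the median log2 fold change was -0.07 against -0.0007 over all genes. The number lower was 10 without APOE3 replicate 4 and 13 to 21 without any other library. Arid1a, the DNA-binding subunit of the SWI/SNF remodeler, ranged from 112.8 to 125.5 CPM in APOE3 (median 119.6) and from 104.4 to 108.8 CPM in APOE4 (median 106.7). The groups did not overlap, and Arid1a was lower by 0.16 on the log2 scale (SE 0.04), with an adjusted p of 0.446 by edgeR (0.0102 with DESeq2 and the authors' factors, and 1.0 with the length and GC correction, where it was lower by 0.098).

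Other members of this list also differed by small amounts. Chd4, the ATPase of the NuRD complex, had medians of 279 CPM in APOE3 and 246 CPM in APOE4 (-0.17, SE 0.05). The acetyltransferase Crebbp was lower by 0.22 and its relative Ep300 by 0.10 on the log2 scale, and the H3K4 methyltransferases Kmt2a and Kmt2d both by 0.17. Smarca2, a SWI/SNF ATPase, was the 1 member higher at an unadjusted p under 0.05 (0.07, SE 0.03).

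The subunits of oxidative phosphorylation and of ribosomes lay on the other side of 0, by less. For complex I, 33 of 37 subunits were higher in APOE4, 5 of them at an unadjusted p under 0.05 and none lower, with a median of 0.05. Without single libraries the number higher under the threshold was 1 (without APOE4 replicate 5) to 6, and the median was 0.02 without APOE4 replicate 2. Ndufb2 was the first of these by p, at medians of 45.1 CPM in APOE3 and 50.3 CPM in APOE4 (0.13, SE 0.04), followed by Ndufb3 (0.10), Ndufa3 (0.11) and Ndufc2 (0.09), all accessory subunits. For complexes III to V, 33 of 38 were higher and 5 had an unadjusted p under 0.05, among them Atp5mpl, Atp5pb and Atp5l of ATP synthase (0.12, 0.07 and 0.11) and Cox6c of cytochrome oxidase (0.07), with a median of 0.04. That number was 1 without APOE3 replicate 3 and up to 6 without other libraries, and the median was 0.02 without APOE4 replicate 2.

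The 13 mitochondrially encoded transcripts had a median of 0.04 with 12 higher and none at an unadjusted p under 0.05. The median was 0.02 with 8 higher without APOE4 replicate 4, and 0.08 with 13 higher without APOE3 replicate 6. Their share of counts was 5.77% ± 0.33 in APOE3 and 5.95% ± 0.44 in APOE4 (SD, n = 6), a difference within the spread (two-sided exact permutation p = 0.446 over 924 divisions). Of 79 cytosolic ribosomal proteins 70 were higher, 3 at an unadjusted p under 0.05 (Rpl30, Rps24 and Rps4x, 0.07, 0.07 and 0.06), with a median of 0.0243. Without APOE4 replicate 2 the median was 0.0089 with 50 higher and 0 under the threshold, without APOE3 replicate 2 the number under it was also 0, and without APOE3 replicate 3 it was 6. The median was 0.0367 without APOE3 replicate 5 and 0.0394 without APOE4 replicate 6. Of 78 mitochondrial ribosomal proteins 61 were higher and 4 had an unadjusted p under 0.05, with a median of 0.04, and Mrpl53 had the smallest p (0.15, SE 0.06). The number was 1 without APOE4 replicate 5 and 6 without APOE4 replicate 3. The regulators of mitochondrial number Ppargc1a (0.02, SE 0.05) and Nrf1 (-0.05, SE 0.06) did not differ beyond their errors.

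Transcript length and GC content moved with these lists. In the quintile of genes with the shortest transcripts, 111 to 1320 bases, the median log2 fold change was 0.03, with 166 genes higher and 44 lower at an unadjusted p under 0.05. In the quintile with the longest, above 4030 bases, the median was -0.02, with 45 higher and 197 lower. By GC content the medians ran from 0.03 in the lowest to -0.04 in the highest quintile. The chromatin regulators had a median transcript length of 5699 bases, against 703.5 for complex I, 720.2 for complexes III to V, 717.4 for cytosolic ribosomal proteins and 2403 over all genes.

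Per animal, the median level of the shortest minus the longest quintile was -0.0394 to 0.0103 on the log2 scale in APOE3 (mean -0.006) and -0.0047 to 0.114 in APOE4 (mean 0.041). The two-sided exact permutation p was 0.0498, and it was above 0.05 without any 1 of 9 animals and with deciles in place of quintiles (0.0952). APOE4 replicates 2 and 5 stood above all others (0.114 and 0.0957), and the other 4 APOE4 animals were between -0.0047 and 0.0231.

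A correction of the counts for length and GC content left 731 genes at an unadjusted p under 0.05, 381 higher (2.05%) and 350 lower (1.88%), together 3.93%. With it, 8 chromatin regulators were lower and 0 higher with a median of -0.04, complex I had a median of 0.02 with 2 members higher, complexes III to V had 0.01 with 0, and cytosolic ribosomal proteins had 0.01 with 0 higher and 1 lower. Of the mitochondrial ribosomal proteins, 56 of 78 were above 0 with a median of 0.02 and 1 under the threshold. The mitochondrially encoded transcripts had a median of -0.01 and 4 of 13 higher. With APOE4 replicates 2 and 5 left out together, 11 chromatin regulators were lower (median -0.05), and the medians of complex I and cytosolic ribosomal proteins were 0.01 and 0.002. In that setting complexes III to V had 0.02, mitochondrial ribosomal proteins 0.03 with 56 of 78 higher, and the mitochondrially encoded transcripts 0.07 with 13 of 13 higher. The part of length and GC in the list differences was not tested beyond these values.

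**Figure D4:**
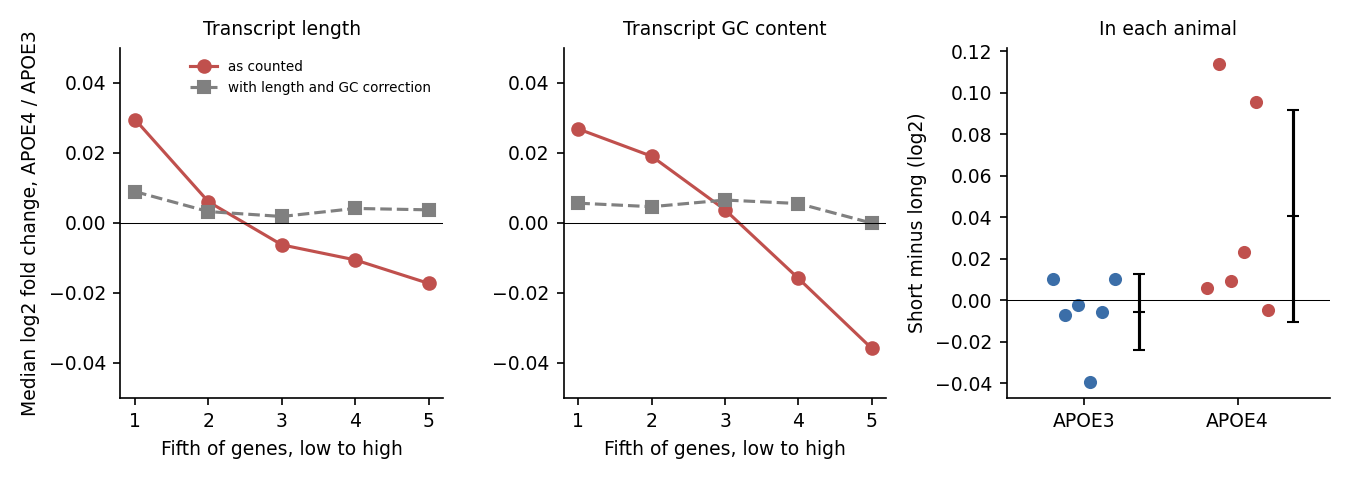
Left and middle, median log2 fold change of APOE4 over APOE3 at 9M-Irreg (vertical axis) in quintiles of genes by transcript length and by GC content, as counted and after the correction. Right, the median level of the shortest minus the longest quintile of genes (log2) in each animal with the mean and SD, where APOE4 replicates 2 and 5 lie highest.

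Oligodendrocytes form myelin. All 12 oligodendrocyte markers were above 0, with a median of 0.12 and 1 member, Mobp, at an unadjusted p under 0.05. Mobp, a structural protein of compact myelin, ranged from 894.5 to 1181 CPM in APOE3 (median 1053) and from 1053 to 1485 CPM in APOE4 (median 1180), and the groups overlapped (0.19, SE 0.09). Mobp was at 0.12 without APOE4 replicate 2 and at 0.08 with APOE4 replicates 2 and 5 left out together. The summed markers were 4540 to 6300 CPM in APOE3 and 5380 to 6590 CPM in APOE4. The median was 0.061 with 0 members under the threshold without APOE3 replicate 1, and 0.1823 with 4 without APOE3 replicate 2. In a tissue extract, a different number of cells of a type and a different amount of RNA per cell cannot be told apart.

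The myelin genes gave a like picture, with 23 of 25 higher, 2 at an unadjusted p under 0.05 and a median of 0.10. Mobp was among them, and Mbp, a main protein of myelin, had 0.05 (SE 0.08). The excess rested partly on APOE3 replicate 1, which had the lowest oligodendrocyte sum: without it, 16 of 25 myelin genes were higher and the median was 0.04. The median was also 0.05 without APOE4 replicate 2, 0.06 without APOE3 replicate 5 and 0.06 without APOE4 replicate 1. Without APOE3 replicate 2, which had the highest sum of its group, the median was 0.17 with 5 members under the threshold. None was under it without APOE3 replicate 6, APOE4 replicate 2 or APOE4 replicate 5, or with APOE4 replicates 2 and 5 left out together (median 0.04).

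Oligodendrocyte precursor markers were split as counted, with 6 of 11 higher. With the length and GC correction 9 of 11 were higher and the median was 0.16. In that setting 3 were higher and 0 lower at an unadjusted p under 0.05 by edgeR. The values that follow are as counted. Bcas1, which marks newly forming oligodendrocytes (0.27, SE 0.08), the matrix glycoprotein Tnr (0.19, SE 0.08) and the lineage factor Olig1 (0.18, SE 0.09) were higher at an unadjusted p under 0.05. Pdgfra, the growth factor receptor that defines precursors, was lower (-0.14, SE 0.06), and Cspg4, another precursor marker, had -0.10 (SE 0.08). The median over the 11 members was 0.11, or 0.05 without APOE3 replicate 5 and 0.06 without APOE4 replicate 1, and 0.17 without APOE3 replicate 6. The number higher under the threshold was 1 without APOE3 replicate 4 or 5 or APOE4 replicate 5 or 6. With APOE4 replicates 2 and 5 left out together it was 0, the median was 0.05 and Bcas1 was at 0.10.

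Microglial markers were above 0 for 11 of 12, with a median of 0.07 and none at an unadjusted p under 0.05. It was 0.04 without APOE3 replicate 5, 0.05 without APOE4 replicate 4, and 0.11 without APOE3 replicate 2 or 6. Aif1, the gene of the microglial protein IBA1, had 2.48 to 3.72 CPM in APOE3 and 3.03 to 3.95 CPM in APOE4 (0.22, SE 0.14). Of 28 interferon response genes and 18 antigen presentation genes, none had an unadjusted p under 0.05, with medians of 0.04 and 0.12. The latter turned to -0.17 with APOE4 replicates 2 and 5 left out together. Among 33 genes of complement and microglial activation, 1 did, the receptor kinase Axl (-0.12, SE 0.05). With the length and GC correction, 0 of the 33 were under that threshold.

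Astrocyte markers had a median of -0.04 (-0.02 with the length and GC correction), with Slc4a4, a bicarbonate transporter, higher (0.14, SE 0.06) and Aldh1l1, a folate enzyme, lower (-0.15, SE 0.06). With the correction, 0 astrocyte markers were lower under the threshold and 1 was higher. Of 19 genes of reactive astrocytes, 3 were higher and 16 lower, Gfap had -0.07 (SE 0.07), and those under the threshold were Stat3 (-0.12, SE 0.06) and Lcn2 (1.48, SE 0.69), which had under 1 CPM in all animals. With the correction, 0 of these 19 genes were lower under the threshold and 1 was higher. Pan-neuronal markers had a median of 0.03 (0.05 with the correction), with Snap25, a SNARE protein of synaptic vesicle release, higher (0.13, SE 0.06). With the correction Snap25 was at 0.095, and no pan-neuronal marker was under the threshold. Markers of dentate granule, CA1, CA3 and inhibitory cells had medians of -0.01, -0.05, 0.01 and 0.01 and 1 member under the threshold, Stxbp6 (0.16, SE 0.08) of the granule cell list. The CA1 median was 0.0019 with the length and GC correction, and 0 members of the granule cell list were then under the threshold. Markers of CA2 cells had a median of -0.11 with 6 of 8 lower and none under the threshold, and those of subiculum and entorhinal cells -0.09 with 6 of 8 lower and 1 under it, the corepressor Tle4 (-0.11). The CA2 median was -0.07 with the correction.

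**Figure D5:**
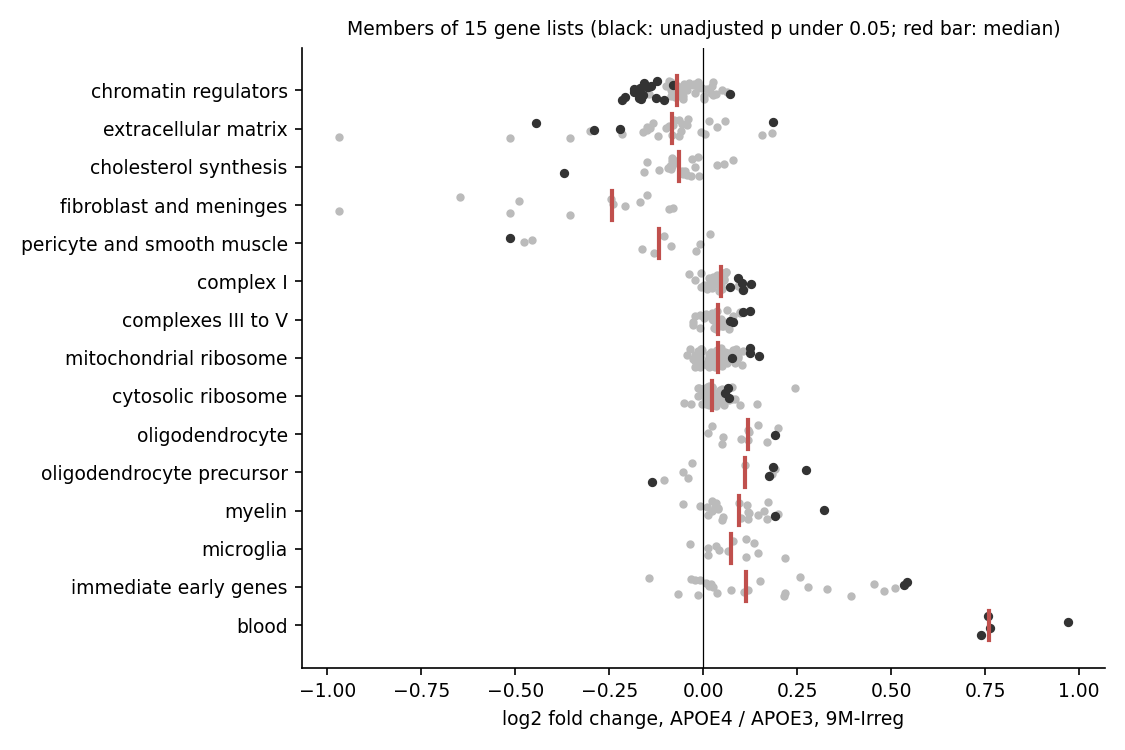
Log2 fold change of APOE4 over APOE3 at 9M-Irreg (horizontal axis) for the tested members of 15 gene lists (points, black at an unadjusted p under 0.05), with the median of each list as a red bar. Chromatin regulators lie mostly below 0 (median -0.07), the respiratory and ribosomal lists slightly above, and the 4 blood genes between 0.74 and 0.97.

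Vessel wall and meningeal genes lay on the lower side. Of 10 pericyte and smooth muscle markers, 9 were lower in APOE4 with a median of -0.12 (-0.07 with the length and GC correction), and Myh11, the smooth muscle myosin, had an unadjusted p under 0.05 with medians of 8.59 and 6.53 CPM (-0.51, SE 0.19, or -0.30 without APOE3 replicate 3). All 12 fibroblast and meningeal markers were lower with a median of -0.24 and none under the threshold, and without APOE3 replicate 6, which had the highest sum of the 12 animals, 5 were higher and the median was -0.06. Without APOE3 replicate 3 it was -0.11, and it was -0.38 without APOE3 replicate 5, -0.43 without APOE3 replicate 2 and -0.47 without APOE4 replicate 4. Endothelial markers had a median of -0.02, with Ly6c1 higher (0.27, SE 0.11) and Mfsd2a, a lipid transporter of the blood-brain barrier, lower (-0.36, SE 0.17). With the length and GC correction, 0 endothelial markers were lower under the threshold and 1 was higher.

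Of 34 extracellular matrix genes, 27 were lower, with a median of -0.08. It was -0.16 without APOE3 replicate 2, and -0.05 without APOE3 replicate 6 or 3, with 1 to 5 members lower under the threshold. The 3 lower ones under the threshold were the laminin chains Lamc1 (-0.22, SE 0.07) and Lamb2 (-0.29, SE 0.12), which build basement membranes, and Tnc (-0.45, SE 0.19), and Tnr was the 1 higher. Fibroblast marker sums ran from 85.5 to 528 CPM in APOE3 and from 104 to 345 CPM in APOE4, and their part in the matrix values was not tested. Pituitary markers had a median of -1.77 over 6 tested, which turned to 0.84 without APOE3 replicate 2. Pomc, the precursor of corticotropin and endorphin, was among them (-1.55, SE 0.72) and turned to 0.52 without that animal.

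Lipid genes were examined because the replaced gene carries lipids. Of 24 genes of cholesterol synthesis, 21 were lower in APOE4 with a median of -0.06, and 1 had an unadjusted p under 0.05: Mvd, which makes isopentenyl pyrophosphate, at 14.1 to 19.6 CPM in APOE3 and 11.2 to 15.6 CPM in APOE4 (-0.37, SE 0.13). The median was -0.04 without APOE4 replicate 1 and -0.03 with APOE4 replicates 2 and 5 left out together, and the number under the threshold was 2 without APOE3 replicate 5 or 6 and 3 without APOE4 replicate 4 or 6. Of 28 genes of lipoprotein and cholesterol transport, 17 were lower and 11 higher. At an unadjusted p under 0.05, 3 were lower, the apolipoprotein E receptors Lrp1 (-0.10, SE 0.04) and Lrp8 (-0.12, SE 0.05) and the sterol exporter Abcg1 (-0.09, SE 0.04), and 1 was higher, Mylip, which targets LDL receptors for degradation (0.23, SE 0.11). With the length and GC correction, none of this list was lower under that threshold (Lrp1 -0.04, Lrp8 -0.07, Abcg1 -0.06) and 2 were higher. Among 32 genes of fatty acid metabolism, fatty acid synthase Fasn (-0.14, SE 0.05) and the desaturase Scd1 (-0.13, SE 0.05) were lower and Etfdh, of beta-oxidation electron transfer (0.13, SE 0.06), was higher, each at an unadjusted p under 0.05. With the correction, 1 of the 32 was lower under that threshold and 1 was higher.

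Genes next to Apoe on chromosome 7 were read separately from the other lists. Of 36 tested, 23 were lower and 13 higher. At an unadjusted p under 0.05, 3 were lower, Ppp1r13l, an inhibitor of p53 (-0.46, SE 0.14), the kinase Mark4 (-0.12, SE 0.05) and the actin regulator Vasp (-0.21, SE 0.09), and 1 was higher, Zfp296 (0.53, SE 0.25). Ppp1r13l did not overlap between the groups, with 4.38 to 5.40 CPM in APOE3 and 3.07 to 4.07 CPM in APOE4. With the length and GC correction, 2 of the 36 were lower under the threshold and 1 was higher. The list median was -0.02, or 0.02 with the length and GC correction and -0.06 with APOE4 replicates 2 and 5 left out together. It was nearest 0 without APOE4 replicate 3 (-0.0052), APOE3 replicate 1 (-0.0056) or APOE3 replicate 3 (-0.0083), and lowest without APOE4 replicate 2 (-0.0284) or 5 (-0.0278), with 2 (without APOE3 replicate 3) to 5 (without APOE4 replicate 1) members lower under the threshold. Over chromosome 7 as a whole, 4.91% of 1466 genes had an unadjusted p under 0.05.

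Hormone and stress genes bear on the endocrine stage. Of 23 tested genes in a list of steroid receptors and steroid enzymes, which also held angiotensinogen, 12 were higher and the median was 0.004. The estrogen receptors Esr1 and Esr2 had 0.15 (SE 0.16) and -0.41 (SE 0.37), and those under the threshold were Srd5a1, the steroid 5-alpha-reductase (0.18, SE 0.09), and Agt, angiotensinogen, at 19.96 to 45.6 CPM in APOE3 and 21.3 to 29.5 CPM in APOE4 (-0.41, SE 0.14). Of 18 glucocorticoid-induced genes, 13 were lower with a median of -0.15, and Klf15 (-0.25, SE 0.10) and Nfkbia (-0.28, SE 0.11) were under the threshold, with Lcn2 in the other direction.

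Immediate early genes, which neurons induce within minutes of firing or handling, were higher for 20 of 26, with a median of 0.11. Btg2 (0.54, SE 0.25) and Ier2 (0.53, SE 0.25) were under the threshold, while Fos (0.39, SE 0.29), Npas4 (0.51, SE 0.26) and Arc (0.33, SE 0.31) were not. The number under it was 0 without APOE3 replicate 5 or without APOE4 replicate 4, 5 or 6, and 5 without APOE4 replicate 1. Ion channels and receptors moved little. Glutamate receptors had a median of 0.04 with Grik2 higher (0.13, SE 0.06), and GABA receptors 0.04 with 2 members higher, Gabrg3 among them. Voltage-gated channels had a median of 0.02 with 22 of 36 above 0 and Kcna4 higher (0.28, SE 0.12). With the length and GC correction the median of the voltage-gated channels was 0.05, with 31 of 36 above 0 and 2 higher under the threshold. Of the 40 function lists, 31 had a median within 0.05 of 0.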

How the data were processed

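RNA-seq libraries from hippocampus were quantified by the authors with Salmon 0.15.0, per the submitters' processing notes, on mouse transcripts. The deposited gene table holds estimated counts, used after rounding to whole numbers, for 24439 genes in 59 libraries. The authors also deposited a normalized signal table (counts scaled by DESeq2 with transcript length), used only for alternatives, and TPM values per transcript. The TPM values weighted the transcripts of each gene in its length and GC content. The mitochondrial share given above is of counts. Totals of the 12 libraries were 20845347 to 28989591 counts. In the main edgeR fit, p-values set a group difference against the spread between animals within groups, estimated over all 59 libraries.

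The 18584 genes reaching 10 counts in 3 or more libraries were fitted with edgeR 4.0.16 (R 4.3.3; TMM factors, quasi-likelihood test, Benjamini-Hochberg adjustment over all genes) in one model of 10 groups. CPM used the same factors. Alternatives were DESeq2 1.42.0, limma 3.58.1 on log2(value + 1), other filters, a fit of the 12 libraries alone, a spline correction for transcript length and GC content, and leaving out each library. The scripts were tested on simulated data. Other computations used SciPy 1.17.1.

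Named genes were those called, the 10 higher and 10 lower with the smallest p, up to 4 members per list by p with defining markers, mouse Apoe and a few genes the study names. The members and the gene lists were chosen with earlier results of these data known. Per-library replicate numbers follow accession order and name a library only. Human APOE was not analysed here. Some genes that the naming rule selects are not reported here.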

Additional observations from a re-analysis of the deposited data

Results flagged for a closer look

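In 10 of 102 sets of 6 animals examined, 1 animal stood far from the others of its group, with a gap above 0.625 of the group's range. For independent sets of normally distributed values, about 5.1 such sets would arise by chance. Some sets here have counts near 0 and the sets share animals, so that figure may not apply and no excess is read from the 10. In APOE3 these were Rida at 37.3 CPM, Gm14379 at 0.0 CPM, Tshb at 0.365 CPM, the summed pituitary markers at 286 CPM and the short minus long transcript level at -0.03941 on the log2 scale. In APOE4 these were Polr2k at 12.2 CPM, Ssh1 at 20.6 CPM, Them5 at 0.0395 CPM, the summed astrocyte markers at 4370 CPM and the summed oligodendrocyte markers at 6590 CPM.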

How the results depend on the processing

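The 1 called gene became 3 with DESeq2, 4 with DESeq2 and the authors' factors, 0 with only the 12 libraries fitted (1148 genes at an unadjusted p under 0.05), 2 with the length and GC correction, 2 with APOE4 replicates 2 and 5 left out together (chosen after seeing the data) and 1 to 6 when single libraries were left out. Genes at an unadjusted p under 0.05 numbered 731 to 1377 under the other alternatives, and 785 to 1197 without single libraries. The short minus long difference was 0.0316 to 0.0553 without single libraries, and 0.052 with deciles of length (exact permutation p = 0.0952).

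Signs turned for Ssh1 (0.0462 with the authors' factors, 0.0298 with limma), Pomc (-2.1533 to 0.5158 without single libraries, the latter without APOE3 replicate 2), Ppargc1a (-0.0029 to 0.0482, the former without APOE3 replicate 2) and mouse Apoe (0.0288 with limma, -0.143 to 0.1 without single libraries, above 0 without APOE3 replicates 3, 4 and 6 and APOE4 replicates 1 and 3). The cause was not tested. Signs of the other named genes were kept. Of 1323 alternative values for the 63 gene lists, 31 changed sign or moved, in 14 lists. No paired analysis was possible because the labels give no replicate number that links animals across groups. Genes with few counts, such as H2ac20 and Gm14379, are limited by depth, and copies of histone and globin genes by how reads were divided.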
